A study of Mus musculus with 36 samples.

Results

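A set of 6 genes of the acute-phase response and of myeloid growth were followed in RAW264.7 cells, a mouse macrophage-like line from a tumour induced by Abelson murine leukaemia virus. They were Saa3, Lcn2, Csf3, Csf2, Csf1 and Il6, found by symbol among the 53465 genes of the deposited tables, so 6 of 53465, and all 6 had a row. The 36 RNA sequencing libraries formed 12 groups of 3 each. The groups were solvent, LPS (lipopolysaccharide, a cell wall component of Gram-negative bacteria) at 10 µg/mL, melatonin alone at 0.1, 1, 10 and 100 µM and 1 mM, and LPS with melatonin at the same 5 doses. Wild-type cells of the line were used in every group, melatonin was added 30 min ahead of LPS where both were given, and treatment lasted 12 h. Of the 6 genes, 5 passed the filter on low counts, and Csf2, with 37 counts over the 36 libraries, did not and was not tested.

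LPS is sensed by Toll-like receptor 4, whose signalling activates NF-kB and AP-1, and C/EBP factors act beside them on many late inflammatory genes. Saa3 encodes a serum amyloid A made outside the liver, a lipid-binding acute-phase protein, and Lcn2 encodes lipocalin 2, which binds bacterial siderophores and so withholds iron. Csf3, Csf2 and Csf1 encode the granulocyte, granulocyte-macrophage and macrophage colony-stimulating factors, secreted proteins that drive the survival, growth and differentiation of myeloid cells. Il6 encodes interleukin 6, the cytokine that drives the acute-phase response of the liver through gp130, JAK kinases and STAT3. Melatonin is the indoleamine hormone of the pineal gland.

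Totals were 4203313 to 7590271 counts per library (median 6649254.5), and 3 counts, the limit that a count of 0 allows, came to 0.388 to 0.599 CPM in a library. CPM are counts per 1000000 on totals scaled by TMM factors. Such limits cover counting error only. Whether replicate libraries stem from separate cultures is not said in the labels, so the p-values here cover a spread that may be only technical. All pairs of replicates differed by more than counting noise, with chi-square values of 8.95 to 37.7 for each degree of freedom. The libraries labelled melatonin 1 mM replicate 3 and melatonin 1 µM replicate 1 stood apart: each correlated at 0.144 with its own group, the former better with melatonin 100 µM (0.258) and the latter with melatonin 1 mM (0.302). Whether their labels are right was not tested, and only 15 of the 36 libraries lay closest to their own group. The summed CPM of 12 macrophage markers was 12850 to 13560 in solvent and 13200 to 13380 with LPS. The 10 neutrophil markers summed to at most 3.785 CPM in any library, with S100a9 and Ly6g at 0 in all 36. The highest sum in any library was 12.89 CPM for dendritic, 9.964 CPM for fibroblast, 7.63 CPM for lymphocyte, 6.785 CPM for endothelial, 3.64 CPM for mast cell and basophil and 1.669 CPM for epithelial markers. The dendritic, endothelial and epithelial maxima were in LPS libraries.

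The 6 genes lie on 5 chromosomes of mm10 in GENCODE M21: Saa3 on chromosome 7 (46711998 to 46715700), Lcn2 on chromosome 2 (32384633 to 32388252), Csf3 and Csf2 on chromosome 11 (98701263 to 98703629 and 54247271 to 54249667), Csf1 on chromosome 3 (107741048 to 107760469) and Il6 on chromosome 5 (30013114 to 30019981). RefSeq windows of 250 bases upstream of the RefSeq gene start (GRCm38.p6) were matched for 5 of them, all but Csf3. The RefSeq and GENCODE starts coincide for Csf1 and Il6. The RefSeq start lies 24 bases inside the GENCODE gene for Saa3 and 513 bases inside for Lcn2, whose window is thus within the GENCODE gene, and 232 bases upstream of it for Csf2. The windows of Saa3, Il6 and Csf1 are shown because their letters differ in which of the motifs of LPS-activated factors they hold. Whether these motifs bear on the levels with melatonin was not tested. Capitals mark matches on either strand to the C/EBP motif TTNNGNAA, to the AP-1 motif TGANTCA or to the NF-kB consensus; each line reads 5′ to 3′ on the strand of the gene.
Saa3 (chr7:46715677-46715926, minus strand): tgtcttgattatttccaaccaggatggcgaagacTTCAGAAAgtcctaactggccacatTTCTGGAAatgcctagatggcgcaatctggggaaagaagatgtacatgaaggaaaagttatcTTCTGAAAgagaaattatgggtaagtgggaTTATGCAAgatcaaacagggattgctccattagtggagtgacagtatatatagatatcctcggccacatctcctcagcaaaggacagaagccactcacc
Il6 (chr5:30012864-30013113, plus strand): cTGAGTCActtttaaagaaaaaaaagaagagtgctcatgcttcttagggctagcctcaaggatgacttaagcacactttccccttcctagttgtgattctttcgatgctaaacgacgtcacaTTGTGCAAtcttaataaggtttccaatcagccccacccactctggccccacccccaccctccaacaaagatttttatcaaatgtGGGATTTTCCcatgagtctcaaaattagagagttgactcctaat
Csf1 (chr3:107760470-107760719, minus strand): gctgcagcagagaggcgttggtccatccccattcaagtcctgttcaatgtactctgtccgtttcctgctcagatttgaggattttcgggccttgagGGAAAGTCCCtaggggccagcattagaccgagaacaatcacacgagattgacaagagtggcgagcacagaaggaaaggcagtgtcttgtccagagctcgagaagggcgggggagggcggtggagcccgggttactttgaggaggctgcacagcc

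The Saa3 window held 4 matches to the C/EBP motif and 0 to the others. The Il6 window held 1 match to each: AP-1 TGAGTCA from 249 bases upstream, C/EBP TTGTGCAA from 128 and NF-kB GGGATTTTCC from 44. The Csf1 window held 1 NF-kB match, GGAAAGTCCC, from 154 bases upstream on the opposite strand. The Lcn2 and Csf2 windows held 1 C/EBP match each, TTGCTCAA and TTGCCCAA. Of 32851 windows of this length, 36.8% held the C/EBP motif, 7.25% the NF-kB consensus and 6.75% the AP-1 motif. A match describes letters only.

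LPS was compared with solvent to see which of the genes the stimulus moved. All 5 tested genes rose by edgeR's quasi-likelihood test (Benjamini-Hochberg adjusted p under 0.05), where 8.4% of the 16988 tested genes rose. In none of the 5 did the groups overlap, against 15.7% of tested genes higher without overlap. Lcn2, Csf3 and Il6 were at 0 counts in 18, 17 and 16 of the 18 libraries without LPS. These 3 genes thus passed the low-count filter only through groups with LPS, and the filter set part of both counts. In bulk RNA, fewer cells of a kind and less RNA per cell cannot be told apart.

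Of the acute-phase genes, Saa3 was at 7.14, 8.95 and 3.90 CPM in the solvent libraries and at 590.25, 594 and 507 CPM with LPS. It was the only one of the 6 with counts in every solvent and every melatonin library. The mean was 6.66 ± 2.56 CPM without and 564 ± 49.4 CPM with LPS (SD, n = 3), an 85.5-fold difference, with a log2 fold change of 6.41 ± 0.27 (SE, adjusted p = 6.62e-22, edgeR). Lcn2 had 0 counts in all 3 solvent libraries and 281, 248 and 227 counts with LPS, which is 42.6, 36.1 and 35.0 CPM. Against the limit of 3 counts over the 3 solvent libraries it was at least 239-fold higher (adjusted p = 3.92e-10, edgeR).

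Of the growth factors, Csf3 had 0, 0 and 2 counts in solvent and 1192, 1209 and 1346 with LPS. This is 181, 176 and 208 CPM with LPS, and the ratio was 1778 with a 95% counting interval from 491.8 to 14690 (adjusted p = 1.27e-15, edgeR). Csf2 had 1 count in solvent and 1, 3 and 19 counts with LPS. Its ratio of 21.8 has a counting interval from 3.54 to 899, and 1 library held most of the counts. Csf1, the growth factor of macrophages themselves, was at 1.19, 0.785 and 0.449 CPM in solvent and 23.4, 11.5 and 8.48 CPM with LPS (log2 fold change 4.14 ± 1.01, adjusted p = 0.00214, edgeR). Relative to the mean, the LPS libraries of Csf1 had an SD of 54.4%, against 8.76% for Saa3, 10.9% for Lcn2 and 9.04% for Csf3. No solvent library had an Il6 count, and the LPS libraries had 63, 60 and 106 (9.56, 8.73 and 16.3 CPM), at least 72.4-fold higher (adjusted p = 0.00114, edgeR).

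Levels of different genes were compared per transcript length, in FPKM. With LPS alone the FPKM level was 210.4 ± 18.6 for Saa3, 129.5 ± 11.6 for Csf3, 14.1 ± 1.54 for Lcn2, 4.62 ± 1.67 for Il6, 2.66 ± 1.45 for Csf1 and 1.42 ± 1.86 for Csf2 (SD, n = 3). Saa3, Csf3 and Lcn2 followed in this order with no overlap between their libraries, while Il6 and Csf1 overlapped, as did Csf1 and Csf2.

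**Figure D1:**
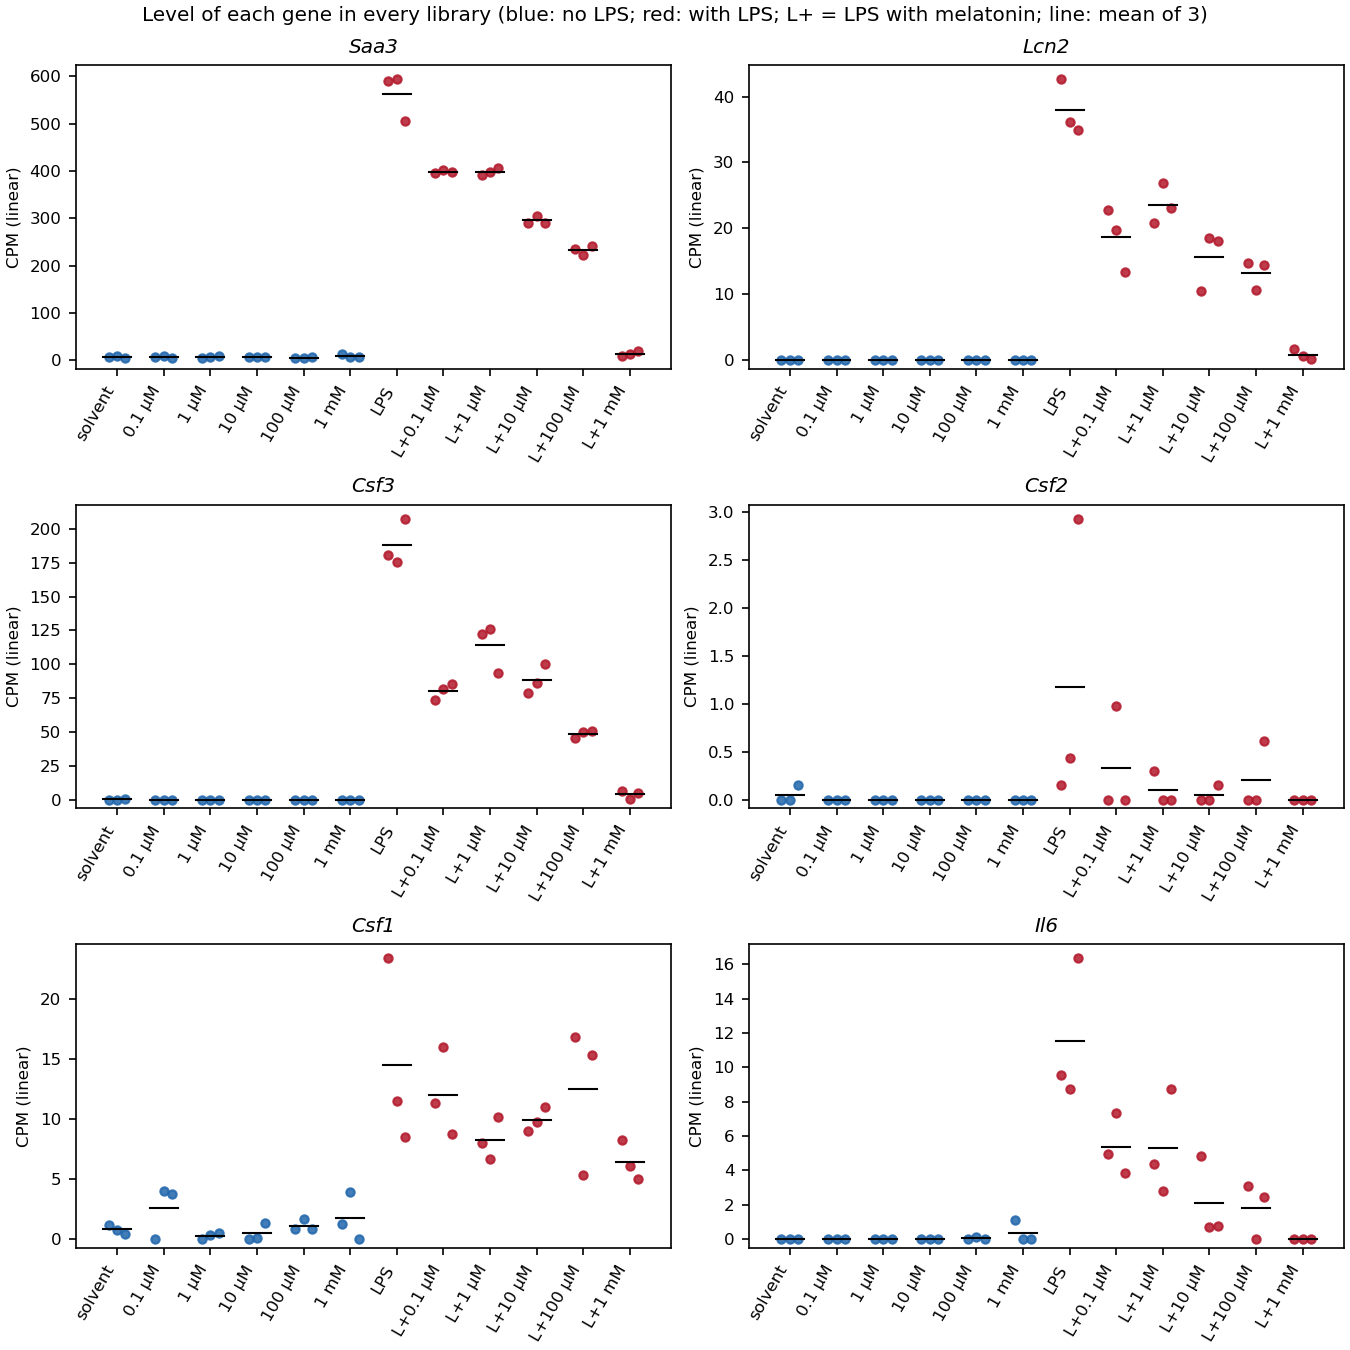
CPM of each of the 6 genes (linear axis, own scale in each panel) in every library of the 12 groups, with points for libraries and a line for the mean of 3. Libraries without LPS lie at or near 0 on the scale of the panel for every gene but Csf1, with Saa3 at 3.90 to 12.5 CPM. The levels of Saa3, Lcn2, Csf3 and Il6 with LPS are lower at each melatonin dose, with Il6 at 0 in the 3 libraries of LPS with 1 mM melatonin.

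Melatonin alone was compared with solvent to see whether it moved the genes in unstimulated cells. By edgeR none of the 5 tested genes passed at any dose, and the share of all tested genes that passed was 0.418% at 1 mM. It was 0.0824% for the 100 µM dose, 0.0824% for 10 µM, 0.147% for 1 µM and 0.341% for 0.1 µM. Without the libraries that stood apart, the count of all tested genes that passed went from 71 to 499 at 1 mM and from 25 to 97 at 1 µM, and none of the 5 was among them. At an unadjusted p under 0.05 the count was 1 at 1 mM and 0 at the other doses, and DESeq2 called 0 at each dose. Lcn2 had 0 counts in all 18 libraries without LPS, so no call was possible for it. Solvent held 0 counts of Il6 and 2 of Csf3, so a fall of either could not be called. Csf3 and Csf2 had 0 counts in all 15 libraries of melatonin alone. Saa3 stayed between 4.02 and 12.5 CPM over those libraries, and its log2 difference from solvent was 0.38 ± 0.27 at 1 mM and -0.42 ± 0.29 at 100 µM. Il6 had 8 counts in melatonin 1 mM replicate 1 and 1 count in melatonin 100 µM replicate 2, and 0 in the other 13. That library of 8 counts gave Il6 the 1 unadjusted p under 0.05 at 1 mM (0.032, adjusted p = 0.432). Csf1 ranged from 0 to 4.02 CPM and was at 0 in 4 of the 15 libraries, with the 3 libraries of 0.1 µM at 0, 4.02 and 3.74 CPM.

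Cells given LPS with 1 mM melatonin were compared with LPS alone to see how much of each LPS level was left. Saa3, Lcn2, Csf3 and Il6 fell, 4 of 5 tested genes, where 4.71% of all tested genes fell. Saa3 was at 8.27, 12.1 and 19.2 CPM, against 507 to 594 CPM with LPS alone. This is 2.34 ± 0.98% of the LPS mean (SD, n = 3), 44.6-fold lower, with a log2 fold change of -5.44 ± 0.26 (adjusted p = 1.01e-19, edgeR). Lcn2 kept 11, 4 and 1 counts, or 1.69, 0.575 and 0.20 CPM, 2.16 ± 2.04% of the LPS mean (log2 fold change -5.46 ± 0.64, adjusted p = 3.61e-07, edgeR).

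Csf3 was at 6.44, 0.719 and 4.99 CPM, 2.15 ± 1.58% of the LPS mean, with a log2 fold change of -5.56 ± 0.39 (adjusted p = 3.55e-12, edgeR). The shares that Saa3, Lcn2 and Csf3 kept lay closer together than the SD of any of them, although their levels with LPS differed. These shares take off no baseline. Saa3 was at 1.18% of its LPS mean in solvent and 1.53% with 1 mM melatonin alone. Lcn2 was at 0% in both groups, and Csf3 at 0.053% and 0%. Similar shares of the level thus need not be similar parts of the LPS response, and whether those parts differed was not tested. Il6 had 0 counts in all 3 libraries of LPS with 1 mM melatonin and was at least 70.8-fold lower, set by 3 counts over the group (adjusted p = 0.00305, edgeR). Csf2 had 0 counts against 23 and was at least 7.11-fold lower, with no test; without LPS replicate 3, which held 19 of the 23 counts, the bound was 1.83-fold, and without any 1 of the other 5 libraries it was 4.43-fold to 10.2-fold. Csf1 was at 8.27, 6.04 and 4.99 CPM, 44.5 ± 11.6% of the LPS mean. Its log2 difference of -1.16 ± 0.86 did not pass (adjusted p = 0.505, edgeR) and has a 95% interval from -2.94 to 0.62, although all 3 libraries lay under the lowest LPS library at 8.48 CPM. In all 5 tested genes the groups did not overlap, against 11.2% of tested genes lower without overlap.

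The summed level of the 12 macrophage markers was 3405 to 4557 CPM with LPS and 1 mM melatonin, against 13200 to 13380 CPM with LPS alone. Melatonin 1 mM alone gave 5285, 5127 and 11950 CPM, the last in replicate 3, which stood apart. Most of this sum comes from Lyz2, Csf1r and Cd14, and the part of this shift in the result was not tested. Not every marker fell: Spi1 was at 198 CPM with LPS and 227 CPM with LPS and 1 mM melatonin. Csf1r was at 1542 and 1219 CPM, which did not pass (adjusted p = 0.401, edgeR, and 0.0426 without the low-count filter). Levels of the other markers by group are not given here. Replicate 3 of LPS with 1 mM melatonin had the lowest total of all libraries (4203313 counts) and the highest TMM factor (1.19). It held the highest Saa3 level of its group and the lowest Lcn2 and Csf1 levels, and the 4 calls held without it.

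**Figure D2:**
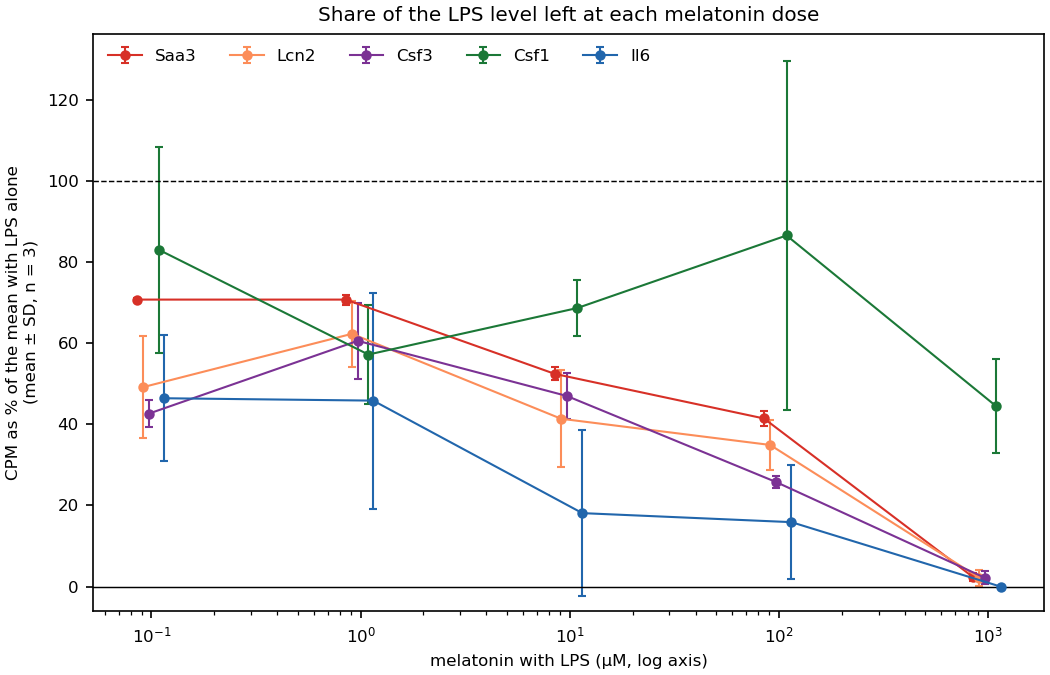
CPM of 5 genes in LPS with melatonin as a percent of their mean with LPS alone (mean ± SD, n = 3), against the melatonin dose in µM on a log axis, with points of 1 dose set side by side. Saa3, Lcn2, Csf3 and Il6 lie at 0 to 2.34% at 1 mM, and Csf1 at 44.5%; the Csf2 level is too low to be drawn.

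The lower doses with LPS were compared with the same LPS libraries, so these 5 comparisons share their control. Saa3 at 0.1, 1, 10 and 100 µM had means of 399 ± 2.50, 399 ± 6.90, 295 ± 8.90 and 234 ± 9.85 CPM (SD, n = 3). The single libraries were 396, 401 and 399 CPM at 0.1 µM, and 392, 399 and 406 CPM at 1 µM. They were 290.25, 306 and 290.35 CPM at 10 µM, and 235, 223 and 242 CPM at 100 µM. Neighbouring groups in this order did not overlap, except 0.1 and 1 µM, whose libraries overlapped. The log2 fold change was -1.27 ± 0.21 at 100 µM (adjusted p = 0.000227, edgeR) and -0.93 ± 0.21 at 10 µM (adjusted p = 0.0252, edgeR), and Saa3 fell at both. At 1 and 0.1 µM it was -0.50 ± 0.21 each and did not pass (adjusted p = 0.32 and 0.263). The call at 10 µM was lost without LPS replicate 1 (adjusted p = 0.0877), LPS replicate 2 (0.106) or any of the 3 libraries at that dose (0.106 to 0.12). A fit on the compared groups alone called Saa3 at 1 and 0.1 µM too (adjusted p = 0.000874 and 0.001, edgeR).

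Csf3 was at 45.3, 49.7 and 50.5 CPM with LPS and 100 µM melatonin, at 79.1, 85.9 and 100.05 CPM with 10 µM, at 122, 126 and 93.7 CPM with 1 µM and at 73.5, 81.4 and 85.6 CPM with 0.1 µM. Every one of these lay under the lowest LPS library, at 176 CPM. The highest of the 5 means was at 1 µM, so the order of the means did not follow the dose, and the 100 µM group lay under the 3 lower doses without overlap. Csf3 fell at 100 µM (log2 fold change -1.96 ± 0.32, adjusted p = 0.000403, edgeR) and at 0.1 µM (-1.23 ± 0.31, adjusted p = 0.0357). The call at 0.1 µM was lost without any 1 of the 6 libraries compared (adjusted p = 0.0748 to 0.152). At 10 and 1 µM the log2 differences were -1.09 ± 0.31 and -0.72 ± 0.31 (adjusted p = 0.138 and 0.337); a fit on the compared groups alone called both (adjusted p = 6.08e-08 and 0.000721), and DESeq2 called Csf3 at 10 µM (adjusted p = 0.0438).

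Lcn2 was at 14.7, 10.6 and 14.4 CPM with LPS and 100 µM melatonin, at 10.4, 18.5 and 18.1 CPM with 10 µM, at 20.8, 26.9 and 23.1 CPM with 1 µM and at 22.7, 19.7 and 13.4 CPM with 0.1 µM. These lay under the lowest LPS library, at 35.0 CPM, and the 4 groups overlapped their neighbours in order of level. None of the differences passed (log2 -1.52 ± 0.51 at 100 µM, adjusted p = 0.168; -1.27 ± 0.51 at 10 µM, adjusted p = 0.412; edgeR). On the compared groups alone Lcn2 passed at 100 µM (adjusted p = 0.000887), 10 µM (0.00773) and 0.1 µM (0.0449). The 95% interval of its log2 difference at 100 µM ran from -2.57 to -0.46 in the fit of all groups.

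Il6 was at 3.07, 0 and 2.43 CPM with LPS and 100 µM melatonin, at 4.82, 0.711 and 0.742 CPM with 10 µM, at 4.38, 2.78 and 8.72 CPM with 1 µM and at 4.93, 7.33 and 3.82 CPM with 0.1 µM. The highest of these lay just under the lowest LPS library, at 8.73 CPM. None passed (log2 -2.64 ± 1.37 at 100 µM, adjusted p = 0.422, edgeR), and on the compared groups alone Il6 passed at 100 µM (adjusted p = 0.029) and 10 µM (0.0442). Csf1 was at 16.8, 5.36 and 15.3 CPM at 100 µM and at 8.99, 9.78 and 11.0 CPM at 10 µM. At 1 µM it was at 8.00, 6.64 and 10.1 CPM, and at 0.1 µM at 8.71 to 16.0 CPM. Each of these groups overlapped the LPS libraries, and the 1 and 100 µM groups also overlapped that of LPS with 1 mM melatonin (4.99 to 8.27 CPM). The log2 difference of Csf1 was -0.21 ± 0.85 at 100 µM, with a 95% interval from -1.96 to 1.54, which holds a 2-fold change in either direction. Csf2 had 4, 1, 2 and 6 counts at 100, 10, 1 and 0.1 µM, each sum from 1 library.

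Counted per dose, 2 of the 5 tested genes fell at 100 µM (0.547% of all tested genes fell), 1 at 10 µM (0.177%), 0 at 1 µM (0.318%) and 1 at 0.1 µM (0.706%). At 1 µM, 2 of the 5 had an unadjusted p under 0.05 in edgeR, and DESeq2 called 0 of the 5. Over all 16988 tested genes 1994 had such a p at 1 µM. At each of these 4 doses the libraries of Saa3, Lcn2, Csf3 and Il6 lay under all LPS libraries, 4 of 5 tested genes. Of all tested genes, 9.17%, 8.5%, 8.84% and 9.16% lay lower without overlap at 100, 10, 1 and 0.1 µM, in this order.

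**Figure D3:**
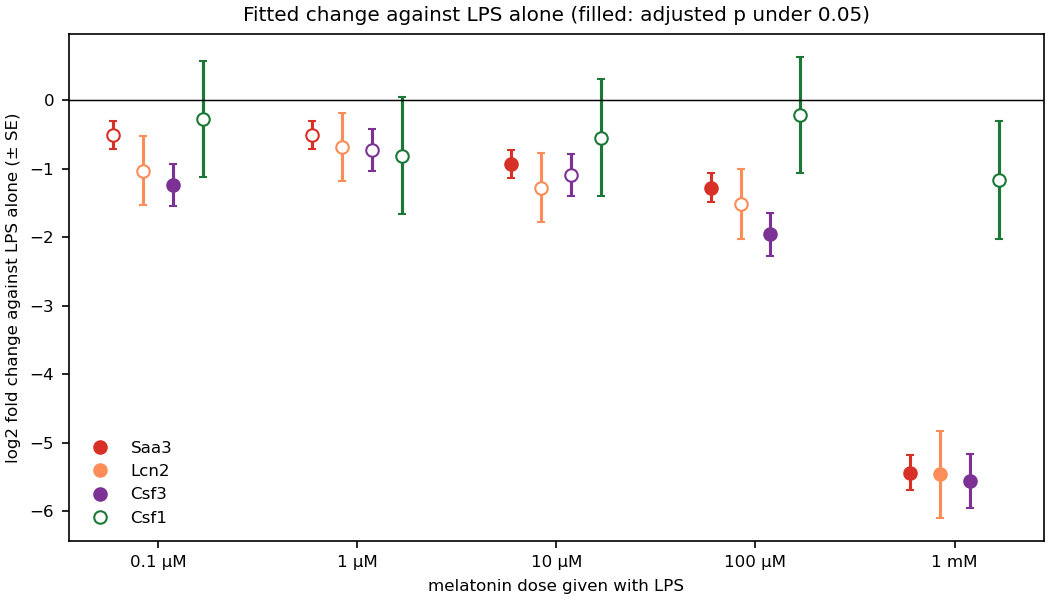
Fitted log2 fold change against LPS alone (± SE, edgeR) for Saa3, Lcn2, Csf3 and Csf1 at each melatonin dose given with LPS, with filled points for adjusted p under 0.05. The 4 lower doses lie between -0.21 and -1.96, and at 1 mM Saa3, Lcn2 and Csf3 lie between -5.44 and -5.56 while Csf1 is at -1.16; Il6 is left out because it had 0 counts at 1 mM.

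Among the neighbouring doses of melatonin, the means of Saa3, Lcn2 and Csf3 differed most between 100 µM and 1 mM, which were compared directly. Saa3 (log2 -4.17 ± 0.25, adjusted p = 3.96e-16, edgeR), Lcn2 (-3.94 ± 0.61, adjusted p = 7.5e-05) and Csf3 (-3.60 ± 0.37, adjusted p = 3.65e-08) fell. Il6 fell too, from 35 counts to 0, at least 11.3-fold (adjusted p = 0.0444), so that 4 of 5 fell where 3.77% of all tested genes did. The Il6 groups overlapped, since 1 library at 100 µM was at 0, and the call was lost without any 1 of 5 of the 6 libraries (adjusted p = 0.0871 to 0.139). It was also lost on the compared groups alone (adjusted p = 0.244) and with the replicate block (0.0644), and DESeq2 gave no adjusted p. Csf1 did not pass (-0.95 ± 0.86, adjusted p = 0.66). Over 0.1 to 100 µM the slope of the log2 level per 10-fold dose was -0.27 ± 0.07 for Saa3, -0.25 ± 0.10 for Csf3, -0.21 ± 0.16 for Lcn2, -0.59 ± 0.42 for Il6 and 0.04 ± 0.27 for Csf1. None of the 5 slopes passed in edgeR, where 0.0177% of all tested genes did. At an unadjusted p under 0.05 there were 2 (Saa3 0.000135, adjusted p = 0.114, and Csf3 0.0141), and DESeq2 called 1, Saa3 (adjusted p = 0.0116). Over all 16988 tested genes 1074 slopes had such an unadjusted p in edgeR.

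LPS with 1 mM melatonin was then compared with 1 mM melatonin alone to see whether the cells still responded. Csf3 and Lcn2 rose, 2 of 5 tested genes, where 4.87% of all tested genes rose. Csf3 had 42, 5 and 25 counts against 0 in all 3 libraries of melatonin alone, at least 27.6-fold higher (adjusted p = 5.97e-07, edgeR), and Lcn2 had 11, 4 and 1 counts against 0, at least 6.14-fold higher (adjusted p = 0.0016). On the compared groups alone Lcn2 did not pass (adjusted p = 0.344). Saa3 was at 8.27 to 19.2 CPM against 6.07 to 12.5 CPM, overlapping groups, with a log2 difference of 0.59 ± 0.25 that did not pass (adjusted p = 0.156). It passed without melatonin 1 mM replicate 1 (adjusted p = 0.0216) or LPS with melatonin 1 mM replicate 1 (0.0326). Csf1 was at 4.99 to 8.27 CPM against 0 to 3.95 CPM, without overlap (log2 1.88 ± 0.91, adjusted p = 0.219). Il6 had 0 counts against 8 and did not pass (adjusted p = 0.187).

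The difference between the LPS response with and without 1 mM melatonin was tested as an interaction in edgeR. Saa3 passed, with a log2 difference of -5.82 ± 0.36 (adjusted p = 2.45e-15), and so did Il6 (adjusted p = 0.00589), while 1.69% of all tested genes passed in either direction. The Il6 call rests on the 8 counts of melatonin 1 mM replicate 1, and without that library its adjusted p was 1. For Lcn2 and Csf3 the term could not be estimated, because all libraries of melatonin alone, and for Lcn2 all solvent libraries, were at 0. For Csf1 it was -2.26 ± 1.30 and did not pass (adjusted p = 0.498). Leaving out both libraries that stood apart changed none of the interaction calls among the 5 genes, and over all tested genes the count that passed went from 287 to 433.

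Within each library, the level of each gene was set against that of Csf1 to ask whether 1 mM melatonin took unequal parts of the LPS levels. The log2 ratio to Csf1 for Saa3 went from 5.38 ± 0.65 with LPS to 0.95 ± 0.94 with LPS and 1 mM melatonin, a difference of -4.43 (SD, n = 3, exact permutation p = 0.1). For Csf3 it went from 3.80 ± 0.82 to -0.99 ± 1.43 and for Lcn2 from 1.50 ± 0.58 to -2.78 ± 0.64. In these 3 ratios the groups did not overlap. The two-sided exact permutation p was 0.1 for each, the smallest that 20 arrangements allow (adjusted over 5 ratios 0.125). With groups of this size the test could not pass the threshold, so it cannot decide whether the parts were unequal. The share of all tested genes whose ratio to Csf1 separates in the same way is not given here, so the lack of overlap has no background to be set against. Il6 and Csf2 had 0 counts in all 3 libraries with 1 mM melatonin, so their ratios there are set by the prior count and are not given as measurements. Lcn2 had 11, 4 and 1 counts in those libraries, so the prior count of 2 also shapes the mean and SD of its ratio there.

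The receptors and signal transducers of these proteins form a list of 19 genes, of which 18 were tested. With LPS 4 rose (Csf2ra, Jak2, Stat3 and Socs3) and 4 fell (Csf1r, Csf2rb2, Il6ra and Slc22a17), where 8.4% of all tested genes rose and 8.09% fell, and the median log2 fold change was 0.02 against -0.02 over all tested genes. Csf2rb2 and Csf2rb are near-identical copies whose reads the counting may split. With 1 mM melatonin against LPS alone 2 rose (Slc22a17 and Csf2rb2, where 2.84% of all tested genes rose) and 1 fell (Csf3r, where 4.71% fell). The LPS calls of Stat3 and Csf2rb2 were lost without 1 library: Stat3 without solvent replicate 3 or LPS replicate 1 (adjusted p = 0.0732 and 0.062) and Csf2rb2 without LPS replicate 1 (0.0545). With 1 mM melatonin, Csf2rb2 lost its call without LPS replicate 1 or 2, or replicate 2 or 3 of the melatonin group (adjusted p = 0.0638 to 0.167). That call was also lost on the compared groups alone (0.207) and without the low-count filter (0.155). On the compared groups alone the LPS call of Csf2rb2 was lost too (0.0594). Csf1r, the receptor of Csf1, was at 4847 to 5309 CPM in solvent and 1371 to 1693 CPM with LPS (log2 -1.71, adjusted p = 5.35e-08, edgeR), so the receptor fell where its ligand rose. With LPS and 1 mM melatonin it was at 1570, 1508 and 578 CPM. Il6ra, the ligand-binding chain of the interleukin 6 receptor, was at 273 CPM in solvent, 135.5 CPM with LPS and 111 CPM with LPS and 1 mM melatonin.

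Csf3r, the receptor of Csf3, was at 7.14, 13.2 and 1.20 CPM in solvent and 5.76, 2.04 and 7.09 CPM with LPS, with no call between them. In the 3 libraries of LPS with 1 mM melatonin it had 0 counts (adjusted p = 0.00011 against LPS, edgeR), and with 1 mM melatonin alone it was at 2.49, 1.27 and 3.59 CPM. Slc22a17, described as a receptor of lipocalin 2, was at 4.25, 1.10 and 4.79 CPM in solvent and 0.152, 0 and 0 CPM with LPS, where it rests on 1 count (adjusted p = 0.000351, edgeR). With LPS and melatonin it was at 3.98, 3.09 and 5.81 CPM at 0.1 µM, 0.302, 1.08 and 0.634 CPM at 1 µM, 2.09, 1.96 and 1.78 CPM at 10 µM, 0.485, 3.15 and 6.07 CPM at 100 µM and 4.29, 1.87 and 2.59 CPM at 1 mM. All 15 lay above the 3 LPS libraries, the reverse of Lcn2. It rose against LPS at 0.1 µM (adjusted p = 0.00378), 100 µM (0.00574) and 1 mM (0.00153), and on the compared groups alone it did not pass at 100 µM (0.109) or 1 mM (0.132). The call at 100 µM was also lost without LPS replicate 2 (0.0601) or 3 (0.0551). Socs3, the feedback inhibitor of gp130 signalling, was at 7.22 to 10.5 CPM in solvent and 51.4 to 77.1 CPM with LPS (log2 2.94, adjusted p = 4.64e-09). It was at 28.7 to 32.3 CPM with LPS and 100 µM melatonin and 29.4 to 45.8 CPM with 1 mM, differences that did not pass (adjusted p = 0.0519 and 0.134); the 100 µM difference passed with DESeq2 (0.016) on the compared groups alone (0.000525) and without LPS replicate 1 (0.0473).

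**Figure D4:**
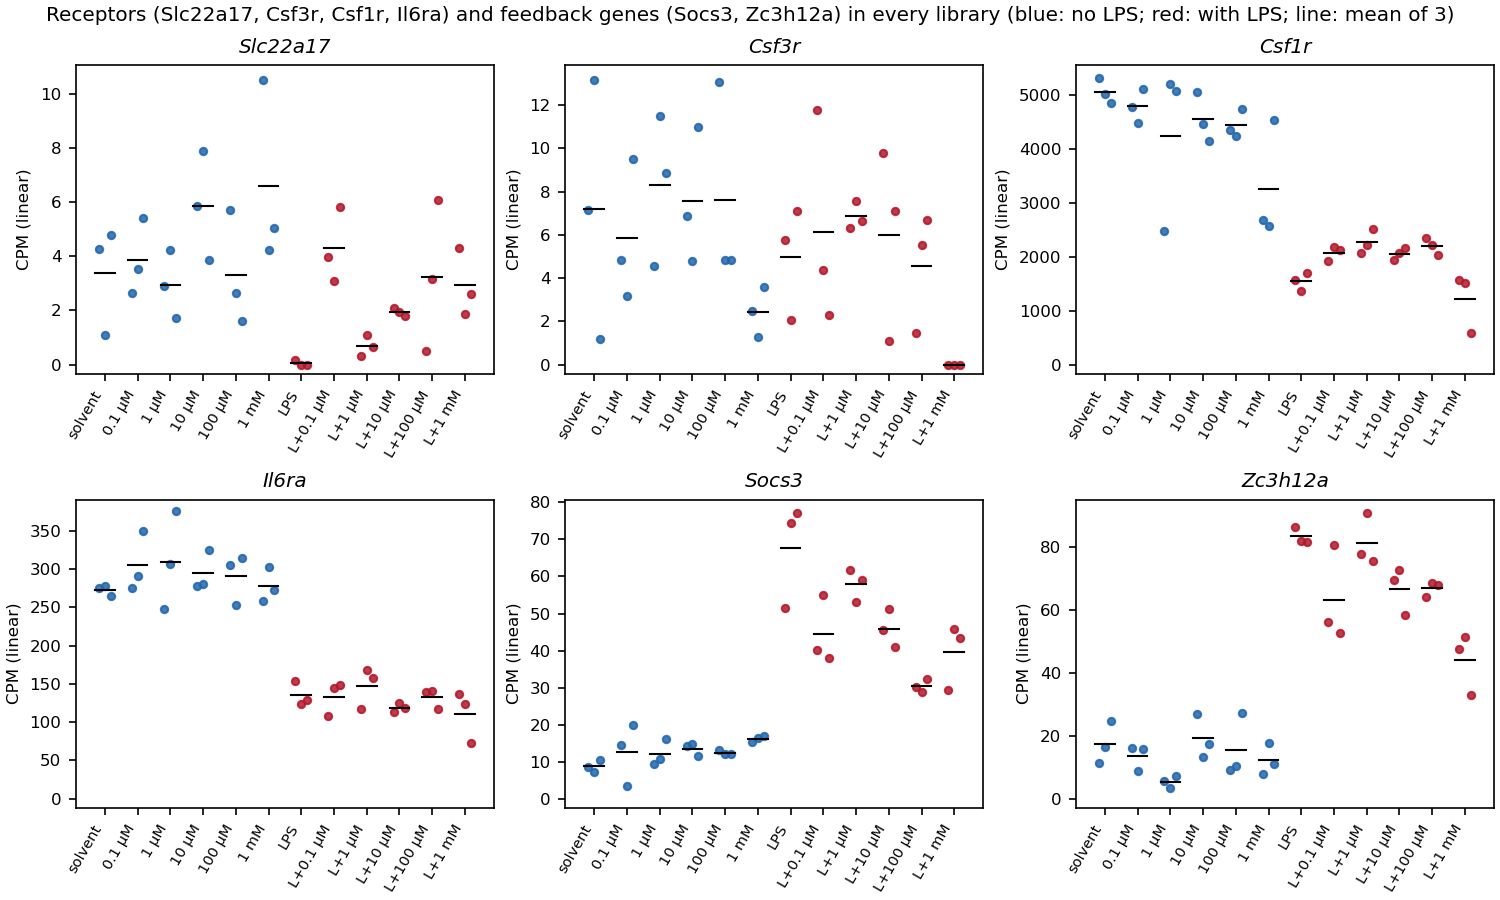
CPM (linear axis, own scale in each panel) of 4 receptors and 2 feedback genes in every library of the 12 groups, with points for libraries and a line for the mean of 3. Slc22a17 lies between 0 and 0.152 CPM with LPS alone and above it in every library of LPS with melatonin, and Csf3r is at 0 in the 3 libraries of LPS with 1 mM melatonin.

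Of 26 transcription factors and mRNA regulators that act on these genes, 13 rose and 3 fell (Atf3, Junb and Zfp36) with LPS, where 8.4% of all tested genes rose and 8.09% fell (median log2 fold change 0.99, against -0.02 over all tested genes). The Atf3 call was lost without any 1 of the 6 libraries (adjusted p = 0.054 to 0.146) and with the replicate block (0.0508), and the Junb call without solvent replicate 1 or 2 or LPS replicate 2 or 3 (0.0581 to 0.114). With 1 mM melatonin against LPS alone 1 rose (Zfp36) and 5 fell (Nfkb1, Zc3h12c, Nfkbiz, Atf4 and Cebpb), where 2.84% of all tested genes rose and 4.71% fell, with a median of -0.23 against 0.02. Nfkb1, a subunit of NF-kB, stood at 49.1 CPM in solvent, 207 CPM with LPS and 106 CPM with LPS and 1 mM melatonin (log2 -0.97 against LPS, adjusted p = 0.000173, edgeR). Fosl1, an AP-1 subunit, went from 0.413 to 57.2 and 28.8 CPM, and the latter difference did not pass (adjusted p = 0.368). Zc3h12a and Zc3h12c encode RNases, the former known to cleave the Il6 mRNA. Zc3h12a was at 17.5, 83.4 and 44.1 CPM in these 3 groups (adjusted p = 0.0667 against LPS, and 0.0381 on the compared groups alone) and Zc3h12c at 157.5, 728 and 438 CPM (adjusted p = 0.00155). Atf4, a stress-response factor, was at 287, 627 and 426 CPM (adjusted p = 0.013), a call lost on the compared groups alone (0.231) and without LPS replicate 1 (0.0501) or LPS with melatonin 1 mM replicate 1 (0.0907) or 2 (0.178).

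Nfkbiz, Cebpb and Zfp36 were named after their values were seen, as were genes listed only by their call. Nfkbiz, a nuclear cofactor of NF-kB that is needed for Lcn2 and Il6 transcription in macrophages, was at 81.0 to 120 CPM in solvent, 221 to 274 CPM with LPS and 131 to 149 CPM with LPS and 1 mM melatonin (adjusted p = 0.00602 against LPS, edgeR). It also fell at 100 µM, to 126 to 130.4 CPM (adjusted p = 0.0094), a call lost without LPS replicate 1 (0.0567) or replicate 1 at 100 µM (0.0677). Cebpb was at 104 to 138 CPM with LPS and 52.8 to 80.5 CPM with LPS and 1 mM melatonin (adjusted p = 0.0169), and at 112 to 134 CPM with 100 µM, within the LPS range. The 1 mM call of Cebpb was lost on the compared groups alone (0.0604) and without LPS replicate 3 (0.104) or LPS with melatonin 1 mM replicate 2 (0.123). Zfp36, whose protein marks AU-rich mRNAs for decay, was at 78.7 CPM with LPS and 172 CPM with LPS and 1 mM melatonin (adjusted p = 0.000266). The 5 that fell had log2 differences from -0.56 to -0.97, against -5.44 to -5.56 for Saa3, Lcn2 and Csf3.

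Of 21 other acute-phase proteins 4 passed the filter (Orm2, Cp, C3 and Fgb), and by edgeR 0 changed with LPS or with 1 mM melatonin against LPS. At an unadjusted p under 0.05 there were 0 with LPS and 1 with 1 mM melatonin, and DESeq2 called 0 in both, with no adjusted p for Orm2 and Fgb. Over all 16988 tested genes, 4748 had such an unadjusted p with LPS and 3316 with 1 mM melatonin against LPS. Orm2 was at 0 in the libraries of these groups, Cp at 3.36 CPM in solvent and 9.15 CPM with LPS (adjusted p = 0.392), C3 at 4.78 and 3.83 CPM and Fgb at 0.733 and 0.257 CPM. Saa1, Saa2 and Saa4, the relatives of Saa3, had 13, 3 and 2 counts over the 36 libraries, and Hp and Ltf, other iron- or haem-handling proteins, 33 and 0. Of 20 other IL-6 family and haematopoietic growth factors 11 were tested. With LPS 2 rose (Osm and Ebi3) and 0 fell, where 8.4% of all tested genes rose and 8.09% fell, with a median log2 fold change of 1.14 against -0.02. With 1 mM melatonin against LPS the same 2 fell and 0 rose, where 4.71% of all tested genes fell and 2.84% rose, with a median of -0.64 against 0.02. Ebi3, a subunit of interleukin 27, was at 8.20 CPM in solvent, 54.3 CPM with LPS and 17.0 CPM with LPS and 1 mM melatonin (adjusted p = 1.98e-07 and 0.00111, edgeR). Osm, oncostatin M, was at 7.52, 19.0 and 7.00 CPM (adjusted p = 0.0381 and 0.0463), and its call with LPS was lost without any 1 of the 6 libraries (adjusted p = 0.056 to 0.14). Its call with 1 mM melatonin was lost without any 1 of 5 of the 6 libraries (0.0724 to 0.154), on the compared groups alone (0.0796) and with the replicate block (0.0568). Il27, the other subunit of interleukin 27, was at 1.31, 8.99 and 1.51 CPM and did not pass (adjusted p = 0.0813 with LPS, edgeR; 0.0372 with DESeq2 and 0.0165 without solvent replicate 3), Kitl was at 34.8, 20.5 and 28.2 CPM and Vegfa at 80.9, 108 and 77.5 CPM.

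The genes whose mean log2 CPM over the 12 groups was most like each member's were found among 9441 genes with at least 5 CPM in some group. For Saa3 they were Lcn2 (Pearson r 0.996), Sod2 (0.993) and Slfn4 (0.993), and for Lcn2 they were Sod2 (0.997), Csf3 (0.996) and Saa3 (0.996). For Csf3 they were Plek (0.998), Lcn2 (0.996) and Zfp811 (0.996). Csf1 was most like Srprb (0.984), Marcksl1 (0.981) and Isg15 (0.977), and Il6 most like Fcgr2b (0.973), Prdx5 (0.965) and Acsl4 (0.962). Among the members, Saa3, Lcn2 and Csf3 were alike at 0.987 to 0.996, and Csf1 and Il6 were least alike, at 0.807. The 12 points share 1 series and their LPS and no-LPS groups lie far apart, and these values are descriptions over 12 group means with no test.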

How the data were processed

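Total RNA was extracted with Trizol and sequenced as Illumina TruSeq libraries, per the labels' protocols. The authors used cutadapt and featureCounts with mm10, per the submitters' processing notes; versions, aligner, annotation and strand setting are not given in the sources used here. The deposited counts are raw whole numbers per gene in 36 columns, per the file headers. A deposited FPKM table gave gene symbols, and its FPKM values were used only to compare levels between genes.

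Groups were taken from the labels. Genes kept by filterByExpr (16988) were tested with edgeR 4.0.16 (R 4.3.3, limma 3.58.1): TMM scaling, 1 mean per group over all 36 libraries, quasi-likelihood test, two-sided, Benjamini-Hochberg adjustment over all tested genes per contrast, threshold 0.05. CPM use TMM-scaled totals of the tested genes, and log2 CPM a prior count of 2. Intervals cover 95%. Where a group had 0 counts, the fold is a bound against 3 counts over the group; ratios with 1 to 3 counts carry exact binomial counting intervals. For ratios to Csf1, all 20 arrangements of the libraries were run as an exact permutation test. The edgeR fit was also run on simulated counts of the same genes, with known fold changes.

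Alternatives were DESeq2 1.42.0, its size factors in edgeR, no filter, the compared groups alone, the replicate number as a block, leaving out each library, and leaving out 2 libraries that stood apart; for 2 comparisons that last one was chosen after seeing the data. Libraries with the same replicate number did not deviate together (r -0.0409 to 0.0503 over 198 pairs), so no shared deviation by number was seen. Whether same-numbered libraries were prepared together cannot be told from this. The members and lists were chosen with earlier results of these data known, and 1 gene of a list is not reported here and was left out of its counts. Of each list, levels are given for at most 5 tested genes, those with the smallest adjusted p with LPS or with LPS and 1 mM melatonin, and also for Nfkbiz, Cebpb and Zfp36, chosen after their values were seen. Promoter windows are RefSeq sequences (GRCm38.p6).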

Additional observations from a re-analysis of the deposited data

Results flagged for a closer look

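The LPS responses of Saa3 and Il6 differed between cells without melatonin and cells with 1 mM melatonin by an interaction test (edgeR). For Saa3 the log2 difference between the responses was -5.82 ± 0.36, lower in all 3 libraries of LPS with 1 mM melatonin than in all 3 LPS libraries (adjusted p = 2.45e-15). For Il6 it was -13.58 ± 2.83 (adjusted p = 0.00589). This size depends on groups at 0 counts and is no measure of the fold, and the call was lost without melatonin 1 mM replicate 1 (adjusted p = 1), the library with 8 Il6 counts.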

How the results depend on the processing

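The counts of called genes among the 5 tested for LPS against solvent (5), each dose of melatonin alone (0), LPS with 1 mM melatonin against LPS (4) and against LPS with 100 µM melatonin (4) kept within 1.5 times under all alternatives run. For melatonin alone Lcn2 had 0 counts in both groups, so its part of that 0 was fixed. For LPS against solvent the low-count filter set part of the count. On the compared groups alone the counts were 4, 4, 2 and 3 for LPS with 100, 10, 1 and 0.1 µM against LPS, 2 for the slope and 1 for LPS with 1 mM against 1 mM melatonin. Over all tested genes that fit called 747, 440, 510 and 624 at these doses, in either direction. It called 107 for the slope and 718 for LPS with 1 mM against 1 mM melatonin. Without the low-count filter the count among the 5 was 2 at 10 µM and 1 for the slope, as with DESeq2. Over all genes these settings called 129 and 152 at 10 µM, and 49 and 31 for the slope. Leaving out 1 library gave 0 to 1 of the 5 at 10 µM and 0 at 0.1 µM in each case. For the interaction it gave 1 to 2, with 1 without melatonin 1 mM replicate 1. The cause was not tested. The difference of the log2 ratio of Csf2 to Csf1 ran from -1.71 to 0.411 on leaving out 1 library, reversed without LPS replicate 3, which held 19 of 23 Csf2 counts; with 1 mM melatonin this ratio is set by the prior count. With the replicate block the count stayed at 5 for LPS against solvent and 4 for LPS with 1 mM melatonin against LPS, and Il6 lost its call for 1 mM against 100 µM (adjusted p = 0.0644). Depth limits Csf2, with at most 23 counts in a group, and Il6 and Lcn2 where they are at 0.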
